A study of Solanum lycopersicum with 30 samples.

Results

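The 6 genes described here, XTH3, XTH5, cel7, MAN2, TBG3 and TBG6, encode enzymes that act on the polysaccharides of the tomato cell wall. They were chosen by the gene symbol that the array's platform annotation gives each probe set, and each symbol belonged to 1 probe set, so that the members were 6 of 10038 probe sets that are not controls. All 6 matched the RefSeq gene table by gene ID with the same symbol. A filter on low signal left 7528 probe sets for testing, among them 5 of the 6 members; MAN2 did not pass it.

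The study measured RNA of tomato (Solanum lycopersicum) roots on 30 Affymetrix arrays, which cross 2 genotypes with 3 treatments of a soil patch, with 5 biological replicates in each of the 6 groups. The genotypes were rmc, a tomato mutant with reduced mycorrhizal colonization, and its wild type (WT), whose roots are colonized by the soil fungi that form arbuscular mycorrhizas. All plants were 8 weeks old at transfer to field soil, grew there for another 5 weeks, and had their patch roots cut 24 h after an injection into the patch. The injection held water or ammonium at one of 2 strengths, low N and high N, which the labels give as 6.5 and 65 ppm for rmc but as 10 and 100 µM for WT. Whether the doses were equal between genotypes cannot be told from these labels, so each difference between the genotypes under ammonium carries any difference in dose, and each average over both genotypes mixes the labelled doses. Every group shares the field site, the soil and the sampling time. Each sample is a mixture of all the cell types of a piece of root, and how far each root was colonized is not analysed here.

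The plant primary wall is a network of cellulose microfibrils, xyloglucan and other hemicelluloses, and pectin, and growing cells must loosen it to expand. Xyloglucan endotransglucosylase/hydrolases (XTH3, XTH5) cut and rejoin xyloglucan chains, endoglucanases such as cel7 cut glucan chains inside the polymer, endo-mannanases such as MAN2 cut mannans, and beta-galactosidases (TBG3, TBG6) take galactose from the side chains of wall polymers. In roots such enzymes are known from the elongation zone and from places where lateral roots emerge, while several relatives in tomato are known from seed germination and fruit softening.

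The values are the authors' log2 MAS5 signals, in which 1 unit is a doubling and every array has been scaled to the same mean. Signals of different probe sets are not levels per length and were not compared as such. Lists of 5 markers of green tissue and 4 of roots were read as a check on the tissue. The root transporter genes AMT1-2, PT1, PT2 and LKT1 were above every negative control on all 30 arrays. Of the 5 shoot markers only PSBR, a photosystem II protein, was tested. Its mean signal was 9.62 in rmc roots given high N against 10.62 in rmc roots given water, and 9.31 in WT roots given high N against 10.45 in WT roots given water; its part in the results was not tested. The lowest median correlations with the other arrays of the same group were 0.946 for rmc water replicate 4 and 0.953 for rmc high N replicate 2, and no array had the values of another.

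**Figure D1:**
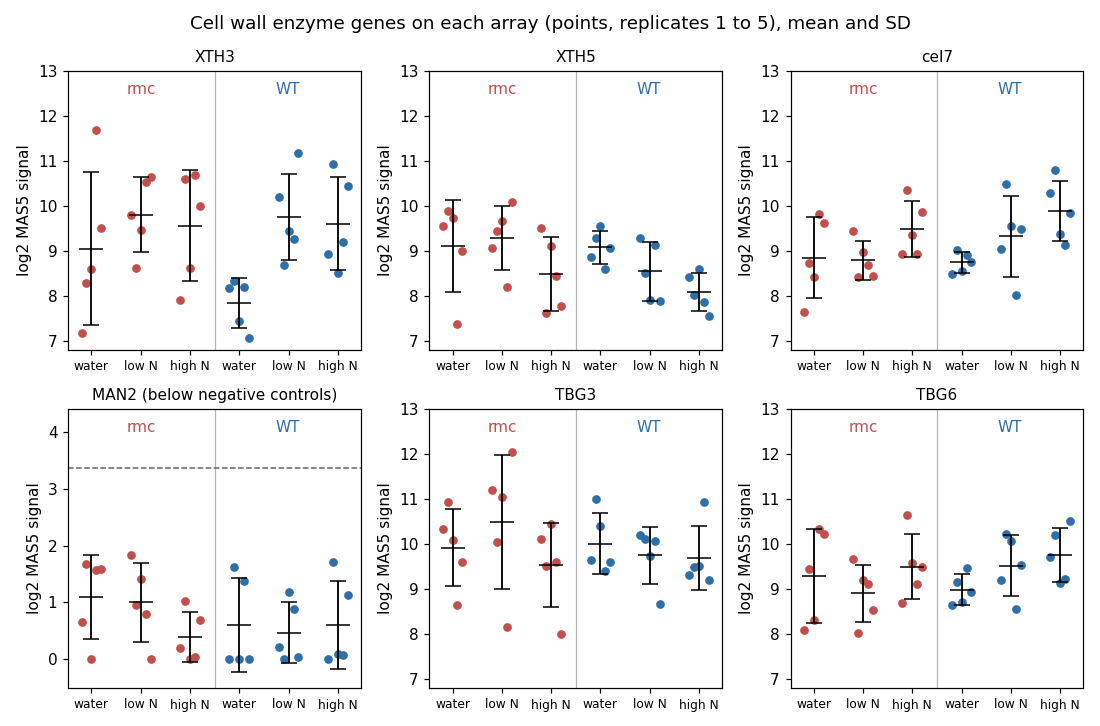
Log2 MAS5 signal of each of the 6 genes on every array, by treatment (water, low N, high N) and genotype (rmc left of WT). Points are arrays, bars are the mean with the SD of 5 arrays, and the dashed line in the MAN2 panel is the highest negative-control reading, 3.37. MAN2 lies under that line on all 30 arrays, and XTH3 has its lowest group in WT roots given water.

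XTH3 was the member with the widest group means, which spanned 1.96 log2 units. None of its differences passed in the fit of all 30 arrays on the deposited scale with equal weights and no block. In rmc roots its signal was 7.17, 8.27, 8.58, 11.69 and 9.50 with water, 9.80, 8.60, 9.45, 10.53 and 10.64 with low N, and 7.91, 10.59, 8.61, 10.69 and 10.00 with high N. In WT roots it was 8.17, 8.33, 7.44, 8.20 and 7.07 with water, 10.19, 8.69, 9.44, 9.26 and 11.17 with low N, and 8.93, 10.93, 8.50, 9.19 and 10.45 with high N. Every WT array given either dose thus lay above every WT array given water, whereas the 3 rmc groups overlapped. Over all probe sets tested, 1.71% had groups that did not overlap for low N against water in WT and 17.7% for high N against water in WT, beside 0.452% and 3.52% in rmc. The means were 9.04 ± 1.70, 9.80 ± 0.83 and 9.56 ± 1.24 in rmc roots with water, low N and high N, and 7.84 ± 0.56, 9.75 ± 0.96 and 9.60 ± 1.04 in WT roots with water, low N and high N (SD, n = 5 each). Ordered by mean, the neighbours from rmc low N through WT low N, WT high N and rmc high N to rmc water differed by less than the pooled SD within groups, 1.11. The step from rmc water to WT water was 1.2. In whole-root samples like these, fewer cells of a type and less RNA per cell cannot be told apart.

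For XTH3 the difference of low N minus water in WT was 1.91 (95% interval 0.53 to 3.29, 3.76-fold), with an adjusted p of 0.759 by limma over all probe sets and an unadjusted p of 0.0084. High N minus water in WT was 1.76 (0.38 to 3.14, 3.39-fold), with an adjusted p of 0.0652. In rmc these differences were 0.76 (-0.62 to 2.14) for low N and 0.52 (-0.86 to 1.89) for high N, with adjusted p of 0.996 and 0.678. The WT high N difference passed at 2.14 with array weights (adjusted p = 0.0038) and with only the groups compared (0.0213). It also passed with the replicate number as a block (0.0429) and without WT high N replicate 3 (0.0409). With scaling to the poly-A control RNA it did not pass (0.141). Of all probe sets in WT, array weights called 1235 higher and 1522 lower, and the block called 1757. The rmc water group holds both the lowest and the highest XTH3 reading in rmc, 7.17 and 11.69, and its SD was the largest of any member in any group. Averaged over both genotypes, high N minus water was 1.14 (0.16 to 2.11, adjusted p = 0.0643), and it passed without rmc water replicate 4 (adjusted p = 0.00765), without WT high N replicate 3, and without rmc high N replicate 1 or 3. It also passed at 1.75 with scaling to the poly-A control RNA (adjusted p = 0.00362), at 1.73 with array weights (0.000844), with the replicate number as a block (0.0441), and at 1.34 without the 2 arrays of lowest median correlation (0.0178). Of all probe sets, the poly-A scaling called 5845 higher and 11 lower, and array weights called 1787 higher and 2017 lower. The block called 2806 of them, in either direction. Low N minus water over both genotypes was 1.34 (0.36 to 2.31, adjusted p = 0.474).

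XTH5, of the same enzyme family, fell with high N when both genotypes were averaged. In rmc roots its signal was 9.55, 9.88, 9.72, 7.36 and 9.0 with water, 9.06, 9.43, 9.66, 8.19 and 10.08 with low N, and 9.50, 7.61, 9.11, 8.44 and 7.78 with high N. In WT roots it was 8.86, 9.29, 9.54, 8.60 and 9.06 with water, 9.28, 8.51, 7.90, 9.13 and 7.87 with low N, and 8.42, 8.01, 8.59, 7.86 and 7.54 with high N. All 5 WT arrays given high N lay below all 5 given water, with 8.592 against 8.596 as the closest pair, while the rmc groups overlapped. In rmc the lowest reading of the 15 arrays, 7.36, was again water replicate 4, the array highest for XTH3. The means were 9.10 ± 1.03, 9.28 ± 0.72 and 8.49 ± 0.82 in rmc with water, low N and high N, and 9.07 ± 0.37, 8.54 ± 0.66 and 8.08 ± 0.43 in WT (SD, n = 5 each). Neighbours in the order of the 6 group means differed by at most 0.53, less than the pooled SD of 0.71.

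Over both genotypes XTH5 was lower with high N than with water by a log2 difference of -0.80 (SE 0.30, 95% interval -1.42 to -0.18), a signal 0.574 times that with water (adjusted p = 0.0419 by limma). It lay below its own genotype's water mean on 8 of 10 high N arrays. The direction was the same in each genotype, -0.62 (-1.50 to 0.26, adjusted p = 0.395) in rmc and -0.99 (-1.86 to -0.11, adjusted p = 0.0978) in WT, and neither passed alone, though both did with array weights, -0.96 (0.0356) in rmc and -1.01 (0.0119) in WT. Of all probe sets, array weights called 826 higher and 897 lower in rmc, and 1235 higher and 1522 lower in WT. The averaged call was lost when any of 12 of the 20 arrays was left out, with adjusted p of 0.0558 to 0.0904 then; these were WT high N replicates 2, 4 and 5, WT water replicates 2, 3 and 5, rmc high N replicates 2, 4 and 5, and rmc water replicates 1, 2 and 3. Scaling to the poly-A control RNA, which was added to the samples, moved the median of all probe sets by 0.61 for this comparison and left XTH5 at -0.19 (adjusted p = 0.493). Low N minus water was 0.18 (-0.70 to 1.06) in rmc and -0.53 (-1.41 to 0.34) in WT.

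cel7, an endoglucanase gene known to respond to auxin in tomato seedlings, rose with high N in WT and over both genotypes. In rmc roots its signal was 7.63, 8.73, 8.42, 9.81 and 9.62 with water, 9.45, 8.41, 8.98, 8.67 and 8.44 with low N, and 8.92, 10.36, 9.35, 8.93 and 9.87 with high N. In WT roots it was 8.48, 9.02, 8.56, 8.90 and 8.75 with water, 9.05, 10.49, 9.54, 8.02 and 9.48 with low N, and 10.28, 10.79, 9.38, 9.13 and 9.83 with high N. The WT water arrays were the most alike of any member's groups, and all 5 WT high N arrays lay above them. In rmc the high N arrays lay within or above the wide range of the water arrays. The means were 8.84 ± 0.90, 8.79 ± 0.43 and 9.48 ± 0.62 in rmc with water, low N and high N, and 8.74 ± 0.23, 9.31 ± 0.90 and 9.88 ± 0.67 in WT (SD, n = 5 each). No step between neighbours in the order of the group means exceeded 0.47, against a pooled SD of 0.67.

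With high N, cel7 was 2.21-fold higher than with water in WT, a log2 difference of 1.14 (SE 0.40, 95% interval 0.31 to 1.97) with an adjusted p of 0.0494 by limma. The difference in rmc was 0.64 (-0.19 to 1.47, adjusted p = 0.347), and 1.52 with poly-A scaling, which passed (adjusted p = 0.00728). With that scaling 6411 of all 7528 probe sets passed in rmc, all of them higher. Averaged over both genotypes cel7 was 1.86-fold higher, a log2 difference of 0.89 (SE 0.29, 0.31 to 1.48) with an adjusted p of 0.0189, and all 10 high N arrays lay above their own genotype's water mean. The call in WT was lost without any of 8 of its 10 arrays (high N replicates 1, 2 and 5, and every water replicate), with adjusted p of 0.0628 to 0.128 and differences over all leave-outs of 0.91 to 1.33. It was also lost with poly-A scaling (1.48, adjusted p = 0.14), with no filter (adjusted p = 0.0619) and without an intensity trend (adjusted p = 0.051). The averaged call was kept in 20 of 20 leave-outs, with adjusted p of 0.0068 to 0.0449. Low N minus water was -0.05 (-0.88 to 0.78) in rmc and 0.57 (-0.26 to 1.41) in WT, and neither passed.

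MAN2, an endo-mannanase gene, was not detected above the array's negative controls in any group. Its readings ran from 0 to 1.83 over the 30 arrays, stood at 0 on 8 of them, and were all under the highest of the 23 negative-control probe sets, 3.37. The group means, 1.1, 1.00 and 0.39 in rmc with water, low N and high N and 0.60, 0.47 and 0.60 in WT, are therefore only bounds and were neither tested nor turned into folds. The other mannanase genes on the array, MAN1 and Man4, were likewise at or under the negative controls on all 30 arrays.

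TBG6 and TBG3 are 2 of the tomato beta-galactosidase genes. Neither passed in any comparison in the fit of all 30 arrays on the deposited scale with equal weights and no block. TBG6 read 8.09, 9.45, 8.32, 10.33 and 10.22 in rmc with water, 9.66, 8.03, 9.19, 9.11 and 8.54 with low N, and 8.68, 10.64, 9.57, 9.10 and 9.49 with high N. In WT it read 8.64, 9.15, 8.71, 9.47 and 8.93 with water, 9.20, 10.22, 10.07, 8.55 and 9.53 with low N, and 9.71, 10.19, 9.13, 9.22 and 10.52 with high N. In WT the 3 groups overlapped, as they did in rmc, where the 2 highest water arrays lay near the top of all rmc readings. High N minus water was 0.22 (-0.65 to 1.09, adjusted p = 0.794) in rmc and 0.77 (-0.10 to 1.65, adjusted p = 0.191) in WT. Over both genotypes it was 0.50 (-0.12 to 1.11, adjusted p = 0.204), but it passed at 1.104 with poly-A scaling (adjusted p = 0.00712) and at 0.66 with array weights (0.0281). It passed as well at 1.095 in rmc with poly-A scaling (0.0432) and at 0.91 in WT with array weights (0.0365). Of all 7528 probe sets, poly-A scaling called 6411 higher and 0 lower in rmc, and 5845 higher and 11 lower over both genotypes. Array weights called 1235 higher and 1522 lower in WT, and 1787 higher and 2017 lower over both genotypes.

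In rmc TBG3 read 10.33, 10.94, 10.08, 8.65 and 9.59 with water, 11.20, 10.04, 11.05, 8.15 and 12.04 with low N, and 10.11, 9.52, 10.44, 9.59 and 8.00 with high N. In WT it read 9.64, 11.00, 10.40, 9.40 and 9.59 with water, 10.21, 10.11, 9.72, 10.05 and 8.66 with low N, and 9.31, 9.50, 9.51, 10.94 and 9.20 with high N. All groups overlapped in both genotypes, and the rmc low N arrays alone spanned nearly the whole range of the gene. High N minus water was -0.38 (-1.54 to 0.77, adjusted p = 0.716) in rmc and -0.31 (-1.47 to 0.84, adjusted p = 0.714) in WT. For both genes every step between neighbouring group means was under the pooled SD, at most 0.30 against 0.70 for TBG6 and 0.49 against 0.93 for TBG3.

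**Figure D2:**
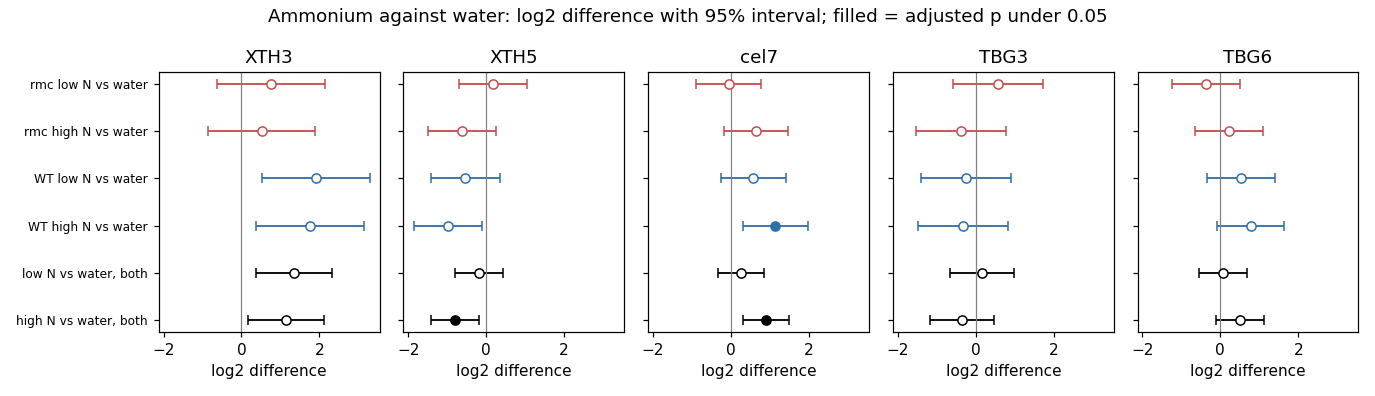
Log2 differences of the 5 tested genes with 95% intervals from the fit, for each ammonium dose against water within rmc (red), within WT (blue) and averaged over both (black). Filled points passed an adjusted p of 0.05. The filled points are cel7 with high N in WT, and cel7 and XTH5 with high N over both genotypes.

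With high N, 0 of the 5 tested members passed in rmc, where 4.34% of all probe sets did, and 0 had an unadjusted p under 0.05, against 1714 of all 7528. In WT 1 of 5 passed, where 18.3% of all did, and the groups of 3 of 5 did not overlap, beside the 17.7% given above. Over both genotypes 2 of 5 passed, 1 in each direction, beside 34.1% of all probe sets, 16.1% higher and 18.0% lower. With poly-A scaling 3 passed, all higher with high N (XTH3, cel7 and TBG6), and XTH5 did not. Each share rests on 5 genes, and none was set apart from that of all probe sets by a test. The median difference of the 5 was 0.22 in rmc, 0.77 in WT and 0.50 averaged, against -0.01, -0.02 and -0.01 over all probe sets. Each of these member medians is the value of TBG6, which did not pass, and 3 of 5 members were above 0 each time. Of all 7528 probe sets, 3664 were above 0 in rmc, 3611 in WT and 3638 averaged. Scaling to the poly-A control RNA changed the calls over all probe sets for the average to 5845 higher and 11 lower, beside 1213 higher and 1353 lower in the deposited scale.

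With low N, 0 of 5 members passed by limma in rmc, in WT or averaged. The same comparisons called 0.0133%, 0.0266% and 0.0531% of all probe sets, which are 1, 2 and 4 probe sets of 7528. At an unadjusted p under 0.05 stood 0 members in rmc, 1 in WT and 1 averaged, XTH3 in both cases. High N against low N called 0 of 5 members in either genotype, with 0 under an unadjusted p of 0.05, beside 0.704% of all probe sets in rmc and 0% in WT, where 672 probe sets had an unadjusted p under 0.05. No member's high N and low N groups stood apart without overlap, beside 1.71% of all probe sets in rmc and 2.30% in WT. The widest of those differences were -0.96 (-2.12 to 0.19) for TBG3 and -0.80 (-1.68 to 0.08) for XTH5, both in rmc. Low N and high N were set against the same water arrays, so the comparisons are not independent of each other.

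No member passed the test between rmc and WT in any treatment. Called shares of all probe sets were 0.478% with water, 1.95% with low N and 1.09% with high N, and 12.3% averaged over the treatments; 0 of 5 members had an unadjusted p under 0.05 in any of these 4. The widest difference was XTH3 with water, where rmc minus WT was 1.2 (-0.18 to 2.58, adjusted p = 0.659). Averaged over treatments, rmc minus WT was 0.41 (-0.39 to 1.2) for XTH3, 0.39 (-0.11 to 0.90) for XTH5 (0.58 with array weights, which passed at an adjusted p of 0.0216), -0.27 (-0.75 to 0.21) for cel7, 0.17 (-0.50 to 0.83) for TBG3 and -0.19 (-0.69 to 0.32) for TBG6. For that average, array weights called 953 of all probe sets higher in rmc and 1198 lower. The groups of the 2 genotypes overlapped for each of the 5 tested members in every treatment, while 2.64% of all probe sets did not overlap with water, 4.49% with low N and 2.35% with high N. These intervals still hold differences of over 1.5-fold for each of the 5 genes.

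The ammonium responses themselves were compared between the genotypes. The high N response of rmc minus that of WT was -1.24 (-3.19 to 0.71) for XTH3, 0.37 (-0.87 to 1.61) for XTH5, -0.50 (-1.67 to 0.68) for cel7, -0.07 (-1.70 to 1.56) for TBG3 and -0.56 (-1.79 to 0.68) for TBG6. The adjusted p was 0.999 for each, 0 members had an unadjusted p under 0.05, and 0.0133% of all probe sets were called. For the low N response it was -1.15 (-3.10 to 0.80) for XTH3, 0.71 (-0.53 to 1.96) for XTH5, -0.63 (-1.80 to 0.55) for cel7, 0.83 (-0.80 to 2.47) for TBG3 and -0.91 (-2.14 to 0.32) for TBG6. Here each adjusted p was 0.928, with 0% of all probe sets called and 184 of them under an unadjusted p of 0.05. The call of cel7 in WT and its absence in rmc is therefore no difference shown between the genotypes.

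**Figure D3:**
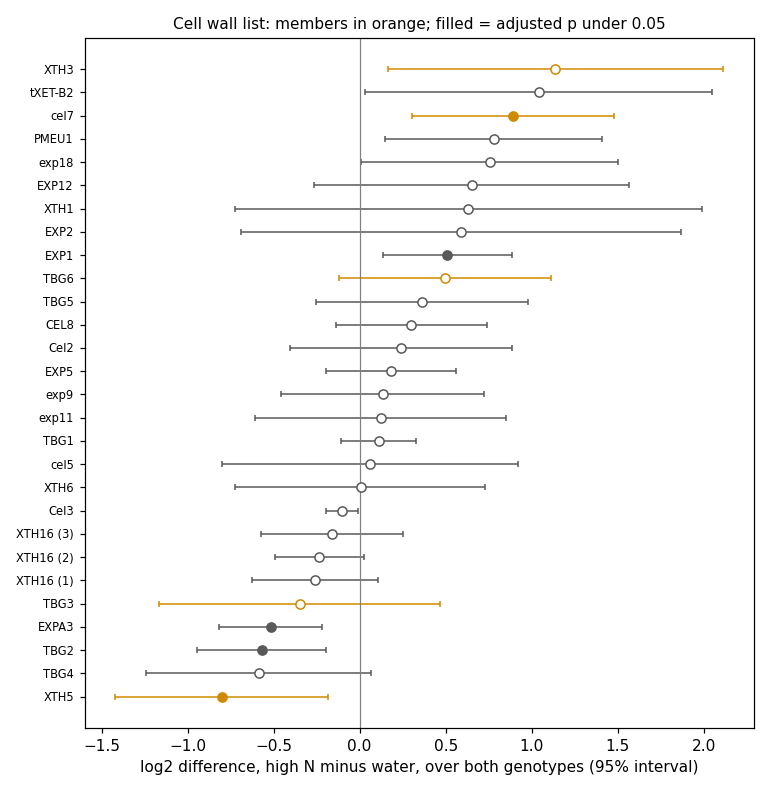
Log2 difference of high N minus water, averaged over both genotypes, with 95% intervals, for the 28 tested cell wall probe sets; the 5 members are in orange. XTH16 has 3 probe sets, numbered. Filled points passed an adjusted p of 0.05: cel7 and EXP1 above 0, and XTH5, TBG2 and EXPA3 below it.

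Other wall genes were read from a list of 44 probe sets for 41 genes, of which 28 were tested, the 5 members and 23 others. With high N over both genotypes, 1 of the 23 rose and 2 fell, 7 had an unadjusted p under 0.05, and the median was 0.14, beside the 34.1% of all probe sets called. The split was 12 higher and 0 lower with poly-A scaling, and 4 higher and 4 lower with array weights. Over all probe sets it was 5845 higher and 11 lower with poly-A scaling, and 1787 higher and 2017 lower with array weights. EXP1, an expansin known from ripening fruit, rose by 0.51 (SE 0.18, adjusted p = 0.0336), with all 10 high N arrays above their genotype's water mean. EXPA3, another expansin, was lower by a log2 difference of -0.52 (SE 0.15, adjusted p = 0.00922), and TBG2, a beta-galactosidase of the same family as TBG3 and TBG6, by -0.57 (SE 0.18, adjusted p = 0.0194), each on 9 of 10 arrays. The calls of EXPA3 and TBG2 were kept in 20 of 20 leave-outs, while that of EXP1 was lost in 9 of 20 (WT high N replicates 2 and 5, WT water replicates 1, 3 and 5, rmc high N replicates 2 and 3, and rmc water replicates 1 and 3), with differences of 0.44 to 0.60 and adjusted p up to 0.0737. EXPA3 and TBG2 turned to the other side of 0 under poly-A scaling, 0.09 for EXPA3 and 0.04 for TBG2, against a median shift of 0.61. On the deposited scale, differences in each of these families stood on both sides of 0, but only the expansins had calls on both. Among the xyloglucan enzymes XTH5 fell, while XTH3 and tXET-B2 read 1.14 and 1.04 without passing (adjusted p = 0.0643 and 0.1). Whether members of a family differ from each other was not tested.

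In WT alone 1 of the 23 other probe sets passed with high N, EXPA3 at -0.63 (SE 0.21, adjusted p = 0.0368), and 0 rose, beside the 18.3% of all. With poly-A scaling 0 passed, beside 8 higher and 1 lower of all probe sets. With array weights 6 were higher and 2 lower, beside 1235 higher and 1522 lower of all. The EXPA3 call was lost in 7 of 10 leave-outs (high N replicates 1, 4 and 5, and water replicates 1, 2, 3 and 5), with differences of -0.72 to -0.51 and adjusted p up to 0.103. In rmc alone 0 of 23 passed, with 1 under an unadjusted p of 0.05, beside 4.34% and 1714 of all 7528. There, 13 were higher and 0 lower with poly-A scaling, beside 6411 higher and 0 lower of all 7528. With array weights 3 were higher and 2 lower, beside 826 higher and 897 lower of all. PMEU1, a pectin methylesterase gene, read 0.78 over both genotypes with an adjusted p of 0.0504. It was called there with a stricter filter, median centring, poly-A scaling, array weights and the replicate block. With no filter, quantile normalization, no intensity trend or signals floored at the highest negative control, PMEU1 was not called. With array weights, 1 of the 23 was higher in rmc than in WT over all treatments and 7 were lower, beside 953 higher and 1198 lower of all 7528. With equal weights 1 of 23 passed between the genotypes over all treatments, beside the 12.3% of all. The 1 that passed was TBG1, which was higher in rmc by 0.30 (SE 0.09, adjusted p = 0.0234) and above the WT mean of its treatment on 14 of 15 rmc arrays. It kept that call in 30 of 30 leave-outs; under poly-A scaling that was 0.17 (adjusted p = 0.592). Besides MAN2, 15 wall probe sets failed the filter on low signal, among them PG2, the polygalacturonase of ripening fruit, and PME2.1, a fruit pectin methylesterase. Of all 16 that failed, 6 were at or under the negative controls on all 30 arrays.

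**Figure D4:**
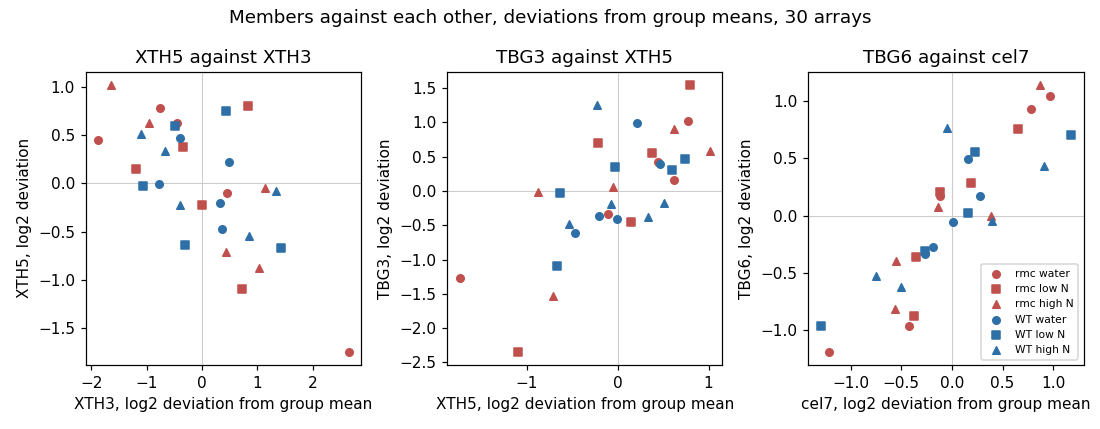
Deviation of each array from its group mean, in log2 units, for 3 pairs of members on 30 arrays, with rmc in red, WT in blue and a symbol for each treatment. cel7 and TBG6 lie along a rising line (r = 0.87), XTH5 and TBG3 along a rising line (r = 0.71), and XTH3 and XTH5 along a falling line (r = -0.67).

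Within groups the members did not vary independently of each other. Each array's deviation from its group mean was compared between the 5 tested members and with 3 array measures, 25 relations in all, by permutation within groups. The array measures share depth and hybridization with the genes, and p-values were adjusted over the 25. cel7 and TBG6, a glucanase and a galactosidase, were most alike, with r = 0.87 (permutation p = 1e-05, the smallest that 100000 permutations can give; adjusted p = 0.000125) and rho = 0.88 (permutation p = 1e-05, adjusted p = 0.000125). Without the 2 arrays farthest from the median of cel7, r was 0.87, and the sign was the same in 6 of 6 groups.

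XTH5 went with TBG3, with r = 0.71 (permutation p = 0.0001, adjusted p = 0.0005), rho = 0.67 (permutation p = 0.00021, adjusted p = 0.00105) and r = 0.60 without 2 arrays. XTH5 went against XTH3, with r = -0.67 (permutation p = 0.00154, adjusted p = 0.00506), rho = -0.59 (permutation p = 0.00381, adjusted p = 0.0106) and r = -0.55 without rmc water replicates 1 and 4. XTH5 also went against TBG6, with r = -0.63 (permutation p = 0.00197, adjusted p = 0.00547) and rho = -0.59 (permutation p = 0.00334, adjusted p = 0.0104), and r = -0.60 without 2 arrays. Arrays high in XTH5 were thus high in TBG3 and low in XTH3, cel7 and TBG6. TBG3 had no relation past the threshold with cel7 or TBG6 (r = -0.27 and -0.24, permutation p = 0.153 and 0.245, adjusted p = 0.174 and 0.255; rho = -0.33 and -0.25, permutation p = 0.0964 and 0.226, adjusted p = 0.13 and 0.236; r = -0.32 and -0.27 without 2 arrays). Of the remaining pairs, XTH5 with cel7 was at r = -0.52 (permutation p = 0.014, adjusted p = 0.027; rho = -0.54, permutation p = 0.00822, adjusted p = 0.0184; r = -0.50 without 2 arrays). XTH3 with TBG6 was at r = 0.56 (permutation p = 0.0113, adjusted p = 0.0235; rho = 0.52, permutation p = 0.013, adjusted p = 0.0249), and at 0.41 without 2 arrays. XTH3 with cel7 (r = 0.47, permutation p = 0.0375, adjusted p = 0.0551; rho = 0.44, permutation p = 0.0401, adjusted p = 0.0641; r = 0.28 without 2 arrays) and with TBG3 (r = -0.40, permutation p = 0.0419, adjusted p = 0.0583; rho = -0.33, permutation p = 0.0991, adjusted p = 0.13; r = -0.30 without 2 arrays) did not pass the threshold.

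**Figure D5:**
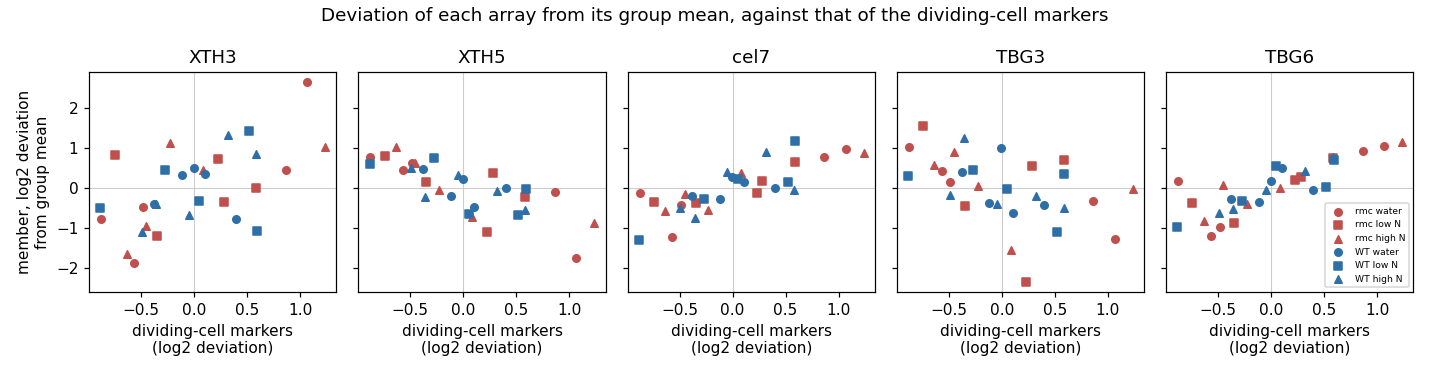
Deviation of each tested gene from its group mean against the deviation of the mean of 9 markers of dividing cells, both in log2 units, on 30 arrays, with rmc in red, WT in blue and a symbol for each treatment. cel7 and TBG6 rise along the axis (r = 0.81 and 0.84) and XTH5 falls (r = -0.76).

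The same order appeared against markers of dividing cells. How many of all probe sets go with these markers as closely was not counted, so no relation particular to the members is shown. The list held 10 genes of cell division, of which 9 were tested (the cyclins CycA1, CycA2, CycA3 and CYCD3, the kinases CDKB1, CDKB2 and cdc2A-2, PCNA and TUB), and none of those 9 is a wall gene. Their mean went with TBG6 at r = 0.84 (permutation p = 4e-05, adjusted p = 0.00025; rho = 0.82, permutation p = 3e-05, adjusted p = 0.000187; r = 0.81 without 2 arrays). It went with cel7 at r = 0.81 (permutation p = 1e-05, adjusted p = 0.000125; rho = 0.83, permutation p = 1e-05, adjusted p = 0.000125; r = 0.79 without 2 arrays). It went against XTH5 at r = -0.76 (permutation p = 3e-05, adjusted p = 0.00025; rho = -0.77, permutation p = 3e-05, adjusted p = 0.000187; r = -0.75 without 2 arrays). The sign was the same in 6 of 6 groups for these 3 genes and for TBG3, and in 4 of 6 for XTH3. XTH3 (r = 0.57, permutation p = 0.0082, adjusted p = 0.0186; rho = 0.55, permutation p = 0.00852, adjusted p = 0.0184; r = 0.46 without 2 arrays) and TBG3 (r = -0.47, permutation p = 0.0176, adjusted p = 0.0294; rho = -0.51, permutation p = 0.00884, adjusted p = 0.0184; r = -0.55 without 2 arrays) were looser.

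The dividing-cell mean was 7.99 (7.35 to 9.22) in rmc with high N against 7.72 (6.85 to 8.79) with water, and 8.42 (7.93 to 9.01) in WT with high N against 7.83 (7.45 to 8.23) with water. By two-sided exact permutation tests, p was 0.635 in rmc and 0.0476 in WT, or 0.752 and 0.165 adjusted over 45 tests. Neither difference of that mean passed after adjustment, and not every marker read higher with high N. cdc2A-2 was lower with high N than with water, at 9.15 against 9.31 in rmc and 9.03 against 9.38 in WT. CycA3 was at 8.53 against 8.52 in rmc and 8.44 against 8.54 in WT. The other tested markers had higher means with high N in both genotypes. With the dividing-cell mean as a covariate, an analysis chosen after the data were seen, cel7 with high N was at 0.62 in WT (adjusted p = 0.114) and 0.51 over both genotypes (adjusted p = 0.0356). XTH5 over both genotypes was then at -0.43 (adjusted p = 0.131).

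A measure read for RNA quality was also compared between the treatments. Whether the RNA of any group was degraded was not tested. The GAPDH 3′ minus 5′ signal, which is larger where RNA is degraded or poorly copied, was -0.14 (-0.33 to 0.01) in rmc with high N against 0.22 (0.15 to 0.34) with water, and -0.12 (-0.19 to -0.05) in WT with high N against 0.21 (0.12 to 0.41) with water. Neither pair of groups overlapped (exact permutation p = 0.0079 each, the smallest 5 against 5 arrays can give; adjusted p = 0.119). Within groups XTH5 went with it (r = 0.66, permutation p = 0.00022, adjusted p = 0.000917; rho = 0.66, permutation p = 0.00052, adjusted p = 0.00217; r = 0.63 without 2 arrays). So did TBG3 (r = 0.64, permutation p = 0.00162, adjusted p = 0.00506; rho = 0.57, permutation p = 0.00239, adjusted p = 0.00854; r = 0.46 without 2 arrays), and XTH3 went against it (r = -0.51, permutation p = 0.00564, adjusted p = 0.0141; rho = -0.46, permutation p = 0.0225, adjusted p = 0.0403; r = -0.48 without 2 arrays). For cel7 (r = -0.25, permutation p = 0.221, adjusted p = 0.24; rho = -0.32, permutation p = 0.109, adjusted p = 0.134) and TBG6 (r = -0.29, permutation p = 0.146, adjusted p = 0.174; rho = -0.31, permutation p = 0.118, adjusted p = 0.134) it did not pass, and r was -0.28 and -0.17 without 2 arrays.

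With GAPDH 3′ minus 5′ as a covariate, the high N difference over both genotypes was 0.40 for cel7 (adjusted p = 0.89) and 0.61 for XTH5 (adjusted p = 0.751), where the sign of XTH5 was turned. XTH3 was then at -0.57 over both genotypes (adjusted p = 0.896), against 1.14 without the covariate, and at 0.16 in WT (adjusted p = 0.998), against 1.76. Because the groups do not overlap in this measure, treatment and measure are hard to separate in that fit. The poly-A control RNA, which is added to RNA before labelling, averaged 8.06 in rmc with high N against 8.94 with water, and 8.25 in WT with high N against 8.58 with water (exact permutation p = 0.0159 each, adjusted p = 0.119). Within groups it went against cel7 (r = -0.48, permutation p = 0.0176, adjusted p = 0.0294; rho = -0.43, permutation p = 0.041, adjusted p = 0.0641; r = -0.42 without 2 arrays), and the other 4 genes had adjusted p of 0.0549 to 0.281. As a covariate it left cel7 at 0.27 (adjusted p = 0.734) and XTH5 at -0.18 (adjusted p = 0.85) over both genotypes.

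The genes whose signal over the 30 arrays was most like that of each member were found among 636 other named genes by Pearson correlation. For XTH3 they were tXET-B2, another xyloglucan endotransglycosylase, at r = 0.95, and CBF1, a transcription factor of the cold response, at 0.88. For XTH5 they were GBF12, a G-box binding factor, at 0.93 and COP1, a ubiquitin ligase of light signalling, at 0.92. The nearest to cel7 were P18, a dUTPase gene, and XTH1, each at 0.84, followed by the cell division kinase CDKB1 at 0.84. CDKB1 is also part of the dividing-cell mean used above, so its values enter both relations. TBG3 had TBG4, the beta-galactosidase of fruit softening, at 0.86, and TBG6 had the endoglucanase gene Cel2 at 0.93 and RSI-1, known from lateral root initiation, at 0.91. The median over all 636 genes lay between -0.07 and 0.03 for the 5 members. Correlations of deviations from group means were of like size, 0.94 for XTH3 with tXET-B2, 0.92 for XTH5 with GBF12, 0.87 for TBG3 with TBG4 and 0.95 for TBG6 with Cel2. The points are the same 30 arrays throughout, and whether probes of related genes such as XTH3 and tXET-B2 or TBG3 and TBG4 hybridize to each other's RNA was not tested.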

How the data were processed

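Root RNA (200 ng) was amplified and hybridized to 30 arrays, per the labels' protocols, and per the submitters' processing notes the tools were MAS5 and Affymetrix Expression Console, in versions not stated there. The authors deposited log2 MAS5 signals, whose linear trimmed mean is 500 to 500.1 on every array. A shift common to all transcripts is therefore not visible in them. Precision is limited by the number of arrays, which have no read depth.

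From 10209 probe sets, removal of 108 array controls, 63 reporter controls and the lowest 25% of the rest by mean signal (under 5.612) left 7528. Gene names came from the platform annotation (909 probe sets with 1 symbol, 885 found in the RefSeq table) and wall genes were matched by symbol alone. Coordinates are not given, since the values come with no genome build. The members and lists were chosen with earlier results of these data known.

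Differences were fitted with limma 3.58.1 in R 4.3.3 (6 group means over 30 arrays, eBayes with an intensity trend), two-sided, with Benjamini-Hochberg adjustment over the 7528 probe sets of each comparison and a threshold of 0.05. The text gives all members, those of the 3 most similar genes per member that have a descriptive symbol, and called wall genes; tXET-B2, PMEU1, PG2, PME2.1, MAN1 and Man4 were chosen for the text after their values were seen. Array measures were compared by exact permutation over arrays with scipy 1.17.1. Other steps used Python 3.11.15, pandas 2.3.3 and, for plots, matplotlib 3.10.9. The fit was tested on simulated data. Alternatives covered the filter, scaling, trend, array weights, replicate block, arrays left out and array measures as covariates.

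Replicate numbers are shared between groups in the labels. Deviations of same-numbered arrays correlated at -0.615 to 0.653 over 75 pairs, of which 40 were over 0.1. In 1 of 15 pairs of groups, rmc with high N and WT with high N, all 5 correlations were over 0.1. The limma fit of 6 group means did not use the numbers, and the block alternative used them in all 6 groups. Nothing in the labels says that a number marks a shared block.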

Additional observations from a re-analysis of the deposited data

Results flagged for a closer look

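TBG3 in WT roots given high N had 1 array, replicate 4, at 10.94, while the other 4 arrays read 9.20 to 9.51. The gap to the nearest of them was 0.822 of the whole range of the group, over the critical value of 0.71 for 5 arrays. Such a gap was looked for in 36 groups of 5 arrays, the 6 genes in 6 groups each, and 1 was found; chance alone gives one in about 5% of groups. Without that array the difference of TBG3 for high N minus water in WT was -0.63 (adjusted p = 0.459 by limma), against -0.31 with it. No member's response differed between the genotypes by the test.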

How the results depend on the processing

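With high N against water in WT, 1 of 5 members passed. That count was 0 with no filter, with poly-A scaling, without an intensity trend, and with the dividing-cell, GAPDH or poly-A measure as a covariate. It was 4 with array weights, 3 with only the groups compared, and 0 to 2 with arrays left out in turn. Over both genotypes 2 passed, against 1 with no filter or the dividing-cell covariate, 0 with the GAPDH or poly-A covariate, 4 with array weights, 3 with poly-A scaling, and 1 to 3 with arrays left out. In rmc 0 passed with high N against water, but 2 with poly-A scaling and 1 with array weights, and against low N 1 with poly-A scaling. Of all probe sets in rmc, poly-A scaling called 6411 for high N against water and 3057 for high N against low N. For rmc against WT over all treatments 0 passed, but 1 with array weights and 1 without the 2 arrays of lowest median correlation. XTH5 with high N over both genotypes turned to 0.61 with the GAPDH covariate. The covariates and the 2 arrays left out together were chosen after the data were seen; the cause of these changes was not tested.

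With the replicate number as a block, 2 members passed with high N in WT (cel7 and XTH3, XTH3 at an adjusted p of 0.0429) and 3 over both genotypes (XTH3 at 0.0441). For rmc against WT with high N the block changed no member's call. Of 1955 alternative values of single members, 1770 kept direction and call, 129 uncalled values changed sign, 23 gained a call, 32 lost one and 1 reversed. Over all probe sets, high N in WT called 1374, and 467 to 1681 with arrays left out, 9 with poly-A scaling, 2757 with array weights and 1757 with the block; in rmc it called 327, with 52 to 1028, 4 with only the groups compared, 6411 with poly-A scaling and 613 with the block. A signal under the negative controls, as for MAN2, is only a bound.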
